A study of Mus musculus with 12 samples.

Results

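The genes described here are 32 mouse genes of cholesterol and fatty acid synthesis, taken by symbol from a fixed list and followed in RNA sequencing of 12 libraries of cultured bone marrow cells. All 32 symbols were found among the 22364 symbols shared by the study's 3 expression tables, which hold 23309 entries for the MLL-AF9 cotransduction, 23235 for the E2A-HLF cotransduction and 23235 for the MLL-AF9 stable cells. The list holds 8 genes of the mevalonate and isoprenoid steps, 11 genes of the steps that make squalene and turn it into cholesterol, 4 regulators or transporters of sterols, 3 genes that supply acetyl-CoA or NADPH and 6 genes of fatty acid and glycerolipid synthesis. The rule names symbols and uses no measured value, although the list was drawn up with earlier results of these data known.

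Each experiment set cells given PRDM16 against cells given PRDM16mut, a mutant form whose change the labels do not state, with 2 libraries per group. In the MLL-AF9 cotransduction, lineage-negative C57BL/6 bone marrow cells received MLL-AF9, a leukaemia fusion gene, together with PRDM16 or PRDM16mut. In the E2A-HLF cotransduction, lineage-negative C57BL/6 bone marrow cells received E2A-HLF, another leukaemia fusion gene, together with PRDM16 or PRDM16mut. In the MLL-AF9 stable cells, C57BL/6 bone marrow cells that already carried MLL-AF9 received PRDM16 or PRDM16mut. All groups therefore carried a fusion gene and a form of PRDM16, and cells with neither form were not analysed here. All were grown with IL3, IL6 and SCF and harvested on day 10 of selection, which used puromycin throughout and, for the cotransductions only, G418 as well. The labels do not say whether the libraries of a group came from separate cultures, so p-values reflect library-to-library variation that could be technical.

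Cholesterol is built from acetyl-CoA through mevalonate, isoprenoid diphosphates, squalene and a series of sterols, and the isoprenoids made on the way also feed protein prenylation and the synthesis of ubiquinone and dolichol. Fatty acids are built from malonyl-CoA with NADPH, then elongated, desaturated and joined to glycerol. Many enzymes of both routes are transcribed under SREBP transcription factors, encoded by Srebf1 and Srebf2, which INSIG proteins hold in the endoplasmic reticulum when sterols are plentiful. NF-Y, which binds CCAAT boxes, is a known partner of SREBP at several of these promoters, and dividing blood cells use both routes to make membrane.

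CCAAT boxes were common among the members, and promoters of 4 members with large mean changes over the 3 experiments are shown. RefSeq promoter windows (GRCm38.p6) were matched for 26 of the 32 genes, and the 250 bases before each gene start were searched on both strands. CCAAT was held by 21 of the 26 members (80.8%), against 37.5% of 27025 genes in the same table. The sterol response element letters TCACNCCAC were held by 1 member, Hmgcs1 (3.85%, against 1.22% of all genes), and the E-box CACGTG by 4 members, Hsd17b7, Sc5d, Dhcr7 and Insig1 (15.4%, against 6.86% of all genes). A match is a description of letters and not a site shown to be bound. Fdps had a larger mean absolute log2 difference than Fasn (0.74 against 0.62) but no entry, so it is not shown. Among called members with an entry and a match, windows of the 4 with the largest mean change are printed. They run 5′ to 3′ on the gene's strand, with CCAAT, its complement on the other strand, and CACGTG in capitals. Chosen for a match, these windows do not show how common matches are. They lie at chr11:120824548-120824797 on the minus strand for Fasn, where a forward and a reverse CCAAT overlap by 2 bases, chr1:169969206-169969455 on the minus strand for Hsd17b7, chr2:155517793-155518042 on the plus strand for Acss2, and chr9:86687278-86687527 on the minus strand for a start of Me1. Another Me1 window held none of the 3 motifs.
Fasn: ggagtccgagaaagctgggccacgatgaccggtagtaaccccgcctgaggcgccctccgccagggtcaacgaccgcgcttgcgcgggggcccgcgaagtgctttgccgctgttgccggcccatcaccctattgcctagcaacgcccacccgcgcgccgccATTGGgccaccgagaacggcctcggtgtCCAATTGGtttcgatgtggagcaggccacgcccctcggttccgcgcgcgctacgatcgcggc
Hsd17b7: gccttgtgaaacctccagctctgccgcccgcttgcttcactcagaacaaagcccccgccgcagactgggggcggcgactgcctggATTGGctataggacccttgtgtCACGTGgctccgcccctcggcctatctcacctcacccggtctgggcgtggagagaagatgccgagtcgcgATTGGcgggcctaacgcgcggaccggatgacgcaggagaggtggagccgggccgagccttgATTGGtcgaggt
Acss2: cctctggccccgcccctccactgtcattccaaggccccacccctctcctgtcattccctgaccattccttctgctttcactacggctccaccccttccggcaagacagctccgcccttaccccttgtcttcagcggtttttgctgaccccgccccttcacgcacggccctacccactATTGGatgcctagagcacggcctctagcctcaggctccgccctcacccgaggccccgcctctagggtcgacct
Me1: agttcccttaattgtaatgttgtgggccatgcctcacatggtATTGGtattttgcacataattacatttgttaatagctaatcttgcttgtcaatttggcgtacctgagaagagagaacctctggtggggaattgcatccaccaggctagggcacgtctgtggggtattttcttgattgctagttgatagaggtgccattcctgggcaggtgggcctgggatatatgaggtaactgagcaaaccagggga

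Expression was deposited as FPKM, a read level corrected for transcript length and for library size, and each experiment was tested alone on log2(FPKM + 1) with limma, calling a gene where its p, adjusted by Benjamini-Hochberg across the whole table, was under 0.05. Differences are PRDM16 minus PRDM16mut, and on this scale they understate the change of low genes. Summed over genes, a library held 570872 to 683269 FPKM. Depth was not given, but steps among low values put the MLL-AF9 cotransduced PRDM16 replicate 2 library at 1.63 times the depth of replicate 1, with ratios of 0.92 to 1.17 in the other groups. Prdm16 itself was at 83.9 and 119 FPKM in MLL-AF9 cotransduced PRDM16 libraries against 29.5 and 30.1 FPKM in PRDM16mut libraries, and at 43.5 to 94.6 FPKM in the 8 other libraries. These values do not tell the introduced forms from the cells' own gene and so do not check the labels. Rn45s, ribosomal precursor RNA, was listed at 0 in both MLL-AF9 cotransduced PRDM16 libraries and at 941 to 1554 FPKM in the other 10.

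Hmgcs1, which makes HMG-CoA from acetoacetyl-CoA, was listed at 0 in all 12 libraries. A gene that growing cells use is not expected at 0 throughout, so the entry was treated as giving no value. The other 31 members passed the filter of at least 1 FPKM in at least 2 of the 4 libraries in each experiment. Scd2, a stearoyl-CoA desaturase, and Fdps, the farnesyl diphosphate synthase, were the 2 members with the highest FPKM in every library of each experiment. Me1, malic enzyme, was the lowest of the 31 in every library except the E2A-HLF cotransduced PRDM16mut libraries. Authors' counting could split reads of some members: in the GENCODE M21 transcripts, 39.1% of the 50-base words of Acat2, 30.4% of Acaca, 28.3% of Me1, 26.5% of Fdft1, 26.2% of Fdps and 25.3% of Idi1 also occur in another gene, so their values are uncertain. Scd1 and Scd2 share 4.56% and 3.97% of theirs with other genes, each other included.

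In the MLL-AF9 cotransduction most members changed, but not in one direction. Fdps fell furthest, to a ratio of 0.349 of its PRDM16mut level, and 7 of 11 genes from squalene synthase to the last sterol steps were lower with PRDM16. In fatty acid synthesis Fasn and Acaca were lower, whereas the desaturases Scd1 and Scd2, the elongase Elovl6 and the lipin Lpin1 were higher. Of the 31 members, 9 were higher and 14 lower with PRDM16, together 23 or 74.2%. Among all 11071 genes tested 69.5% were called, 35.6% higher and 34.0% lower, so the share of members called was near that of all genes. The median difference of the members was −0.11 on the log2 scale, against 0.01 for all genes. The groups did not overlap for 27 of the 31 members, against 86.3% of all genes.

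**Figure D1:**
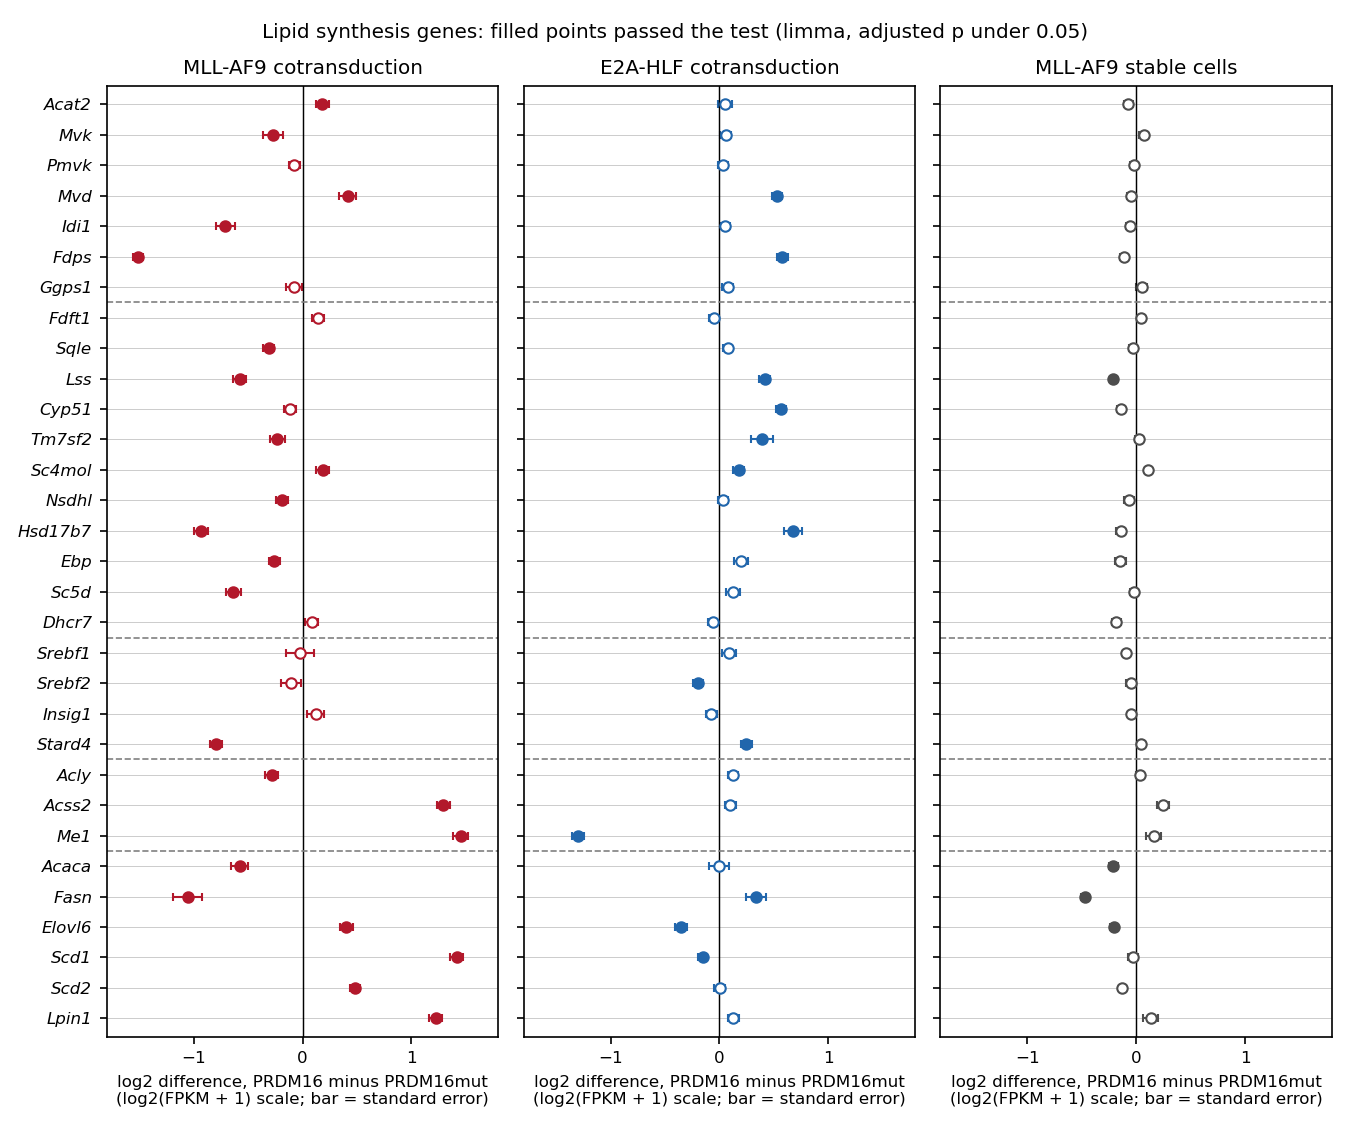
Log2 differences (PRDM16 minus PRDM16mut, log2(FPKM + 1) scale, bars showing standard errors) of the 31 tested members in each experiment, ordered by role with dashed lines between the 5 role groups. Filled points passed the test, 23 in the MLL-AF9 cotransduction, 13 in the E2A-HLF cotransduction and 4 in the MLL-AF9 stable cells.

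Among the mevalonate and isoprenoid genes, 3 of 7 tested were lower and 2 higher with PRDM16 in the MLL-AF9 cotransduction. These shares were 42.9% and 28.6%, against 34.0% and 35.6% of all genes. Fdps, which makes farnesyl diphosphate, had 121 and 123 FPKM in PRDM16 libraries against 350.4 and 350.2 FPKM in PRDM16mut libraries. Both PRDM16 libraries stood far below both PRDM16mut libraries, a log2 difference of −1.51 ± 0.05 (SE, adjusted p = 1.07e-05 by limma). Idi1, the isopentenyl diphosphate isomerase, was lower by the same test (36.1 ± 4.3 FPKM with PRDM16 and 59.5 ± 0.3 FPKM with PRDM16mut, SD, n = 2 each), as was mevalonate kinase, Mvk (log2 −0.27). The Mvk call was lost without PRDM16 replicate 1 (log2 −0.16), PRDM16mut replicate 1 (log2 −0.22) or PRDM16mut replicate 2 (log2 −0.32). Mvd, the mevalonate diphosphate decarboxylase, was higher (40.9 ± 4.1 FPKM with PRDM16 and 30.4 ± 0.8 FPKM with PRDM16mut, SD, n = 2 each), and so was Acat2, the cytosolic thiolase that opens the route (log2 0.18). Phosphomevalonate kinase, Pmvk, and the geranylgeranyl diphosphate synthase, Ggps1, were not called. The summed FPKM of the group was 254 to 257 in PRDM16 libraries and 497 to 499.6 in PRDM16mut libraries, of which Fdps was the largest term. Without PRDM16mut replicate 1 or 2, 3 and 2 of the 7 were called.

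Among the squalene and sterol steps, 7 of 11 genes were lower and 1 higher in the MLL-AF9 cotransduction. The lower share was 63.6%, against 34.0% of all genes, and the higher share 9.09%, against 35.6%. Hsd17b7, a keto-sterol reductase, had 4.53 and 4.23 FPKM in PRDM16 libraries against 9.21 and 9.35 FPKM in PRDM16mut libraries (log2 −0.93 ± 0.06, adjusted p = 0.000121, limma). Its PRDM16 libraries both lay well under the PRDM16mut libraries. Lanosterol synthase, Lss (log2 −0.58), the sterol desaturase Sc5d (−0.64), squalene epoxidase, Sqle (−0.31), the sterol isomerase Ebp (−0.26), the sterol reductase Tm7sf2 (−0.23) and the sterol dehydrogenase Nsdhl (−0.19) were the others that fell. Sc4mol, the methyl sterol oxidase now named Msmo1, rose by 0.18. Squalene synthase, Fdft1, the lanosterol demethylase Cyp51 and the reductase Dhcr7 were not called. Without either PRDM16mut library, 3 of the 11 were called: the log2 differences of the others kept their sign, and a fit with 1 library in an arm assumes that it varies like the other group.

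Transcripts of the SREBP factors themselves were not called in the MLL-AF9 cotransduction. Srebf1 had 22.2 and 29.5 FPKM in PRDM16 libraries against 26.2 and 25.9 FPKM in PRDM16mut libraries, and the 2 PRDM16 libraries lay on either side of the PRDM16mut libraries. The log2 difference of Srebf1 was −0.02, with a 95% confidence interval of −0.36 to 0.31. Without PRDM16 replicate 1 it was 0.17, and without replicate 2 it was −0.22, both past the threshold, so 1 library sets its sign. Srebf2 had 47.8 and 57.7 FPKM in PRDM16 libraries against 56.3 and 57.0 FPKM in PRDM16mut libraries, and its interval ran from −0.35 to 0.14. Insig1, the protein that retains SREBP, had 40.1 and 35.2 FPKM in PRDM16 libraries against 33.7 and 35.2 FPKM in PRDM16mut libraries, with an interval of −0.08 to 0.32. Without PRDM16 replicate 2 all 4 genes of this group were called, and without PRDM16 replicate 1 it was 2 of 4. Stard4, a carrier that moves cholesterol between membranes, fell with PRDM16, at 17.4 and 18 FPKM in PRDM16 libraries against 31.0 and 32.1 FPKM in PRDM16mut libraries (log2 −0.80 ± 0.05, adjusted p = 0.000134, limma).

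Of the 3 acetyl-CoA and NADPH supply genes, 2 were higher and 1 lower with PRDM16 in the MLL-AF9 cotransduction. All genes tested there were 35.6% higher and 34.0% lower. Acss2, which makes acetyl-CoA from acetate, had 16.8 and 17.9 FPKM in PRDM16 libraries against 6.57 and 6.40 FPKM in PRDM16mut libraries (log2 1.29 ± 0.06, adjusted p = 4e-05, limma). Me1, which yields NADPH from malate, had 4.49 and 4.12 FPKM in PRDM16 libraries against 0.92 and 0.95 FPKM in PRDM16mut libraries (log2 1.45 ± 0.07, adjusted p = 3.65e-05, limma). Me1 passed the filter only through the PRDM16 libraries. Acly, which makes acetyl-CoA from citrate and is the most abundant gene of this group, was lower (log2 −0.29, a call lost without either PRDM16mut library), and the summed FPKM of the 3 genes was 75.5 to 80.2 in PRDM16 libraries and 75.9 to 76.3 in PRDM16mut libraries.

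Of the 6 fatty acid and glycerolipid genes, 4 were higher and 2 lower with PRDM16 in the MLL-AF9 cotransduction. These shares were 66.7% and 33.3%, against 35.6% and 34.0% of all genes. Fatty acid synthase, Fasn, had 23.4 and 31.0 FPKM in PRDM16 libraries against 56.1 and 58.0 FPKM in PRDM16mut libraries (log2 −1.06 ± 0.13, adjusted p = 0.00122, limma). The 2 PRDM16 libraries differed from each other, but both stayed well under the PRDM16mut libraries. Acetyl-CoA carboxylase, Acaca, was also lower (log2 −0.58). Scd1, a desaturase that makes oleate, had 12.7 and 12 FPKM in PRDM16 libraries against 4.01 and 3.98 FPKM in PRDM16mut libraries (log2 1.42 ± 0.06, adjusted p = 2.92e-05, limma). Lpin1, a phosphatidate phosphatase, had 11.0 and 11.5 FPKM in PRDM16 libraries against 4.14 and 4.35 FPKM in PRDM16mut libraries (log2 1.22 ± 0.06, adjusted p = 4.99e-05, limma). The desaturase Scd2 (log2 0.48) and the elongase Elovl6 (log2 0.40) were higher too.

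**Figure D2:**
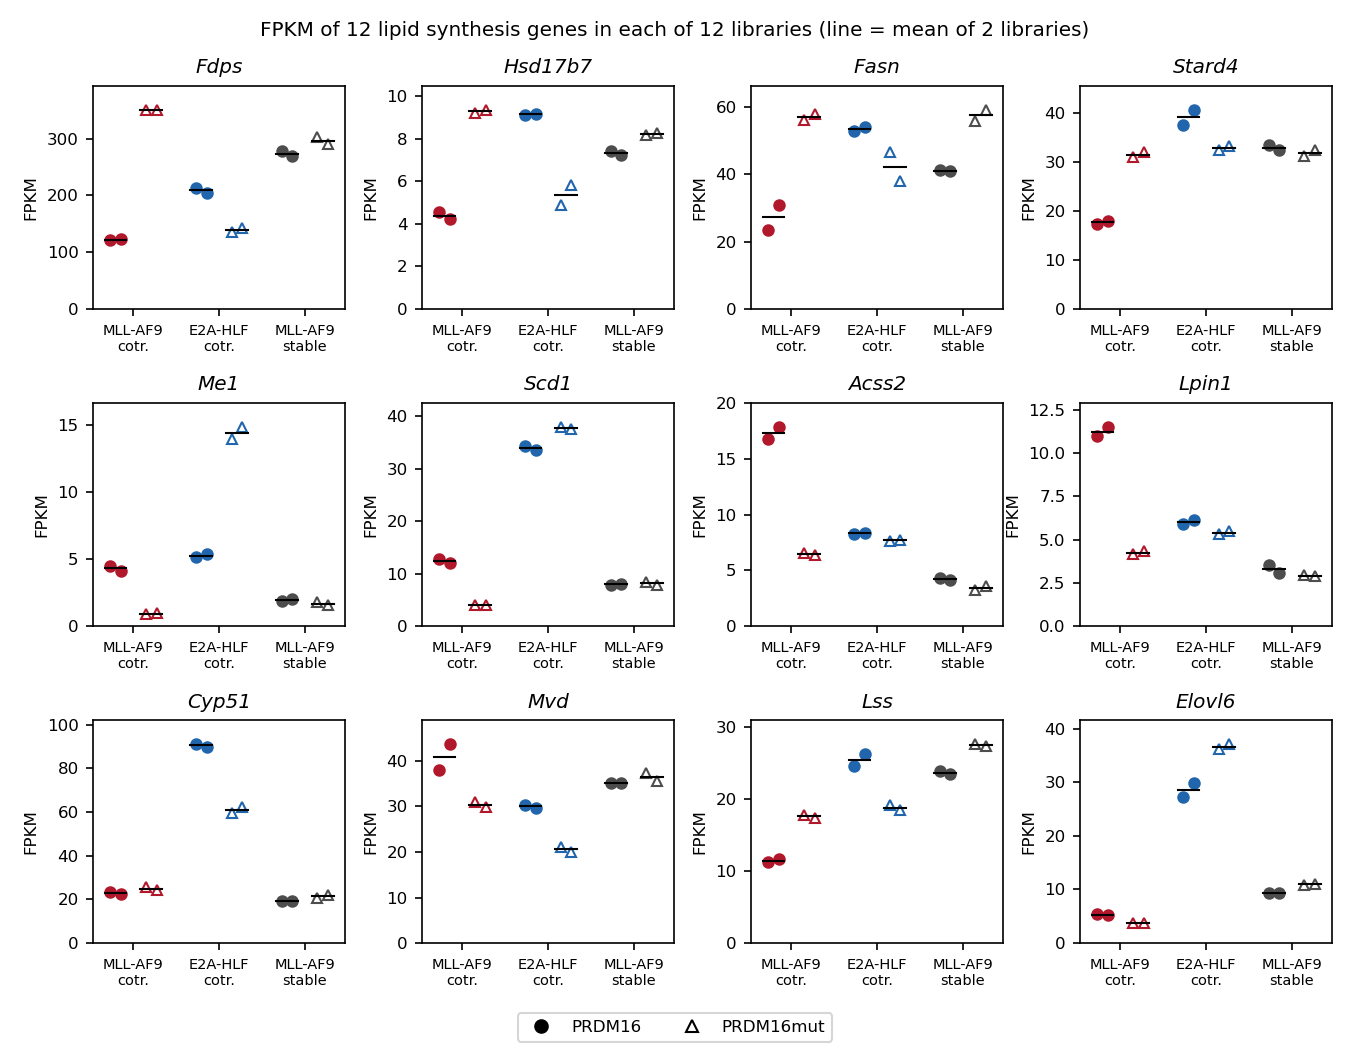
FPKM of 12 members in each library, with PRDM16 (filled circles) left of PRDM16mut (open triangles) in each experiment and lines at group means of 2 libraries. Experiments were normalized separately, so levels are to be read within an experiment; Fdps stood at 121 and 123 FPKM with PRDM16 against 350.4 and 350.2 FPKM with PRDM16mut in the MLL-AF9 cotransduction, and at 213 and 204 FPKM against 136 and 143 FPKM in the E2A-HLF cotransduction.

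Marker transcripts of several blood cell types differed in the same libraries. Beside the counts below, 35.6% of all genes were higher and 34.0% lower with PRDM16. All 9 neutrophil granule markers were lower, with summed FPKM of 1096 to 1156 in PRDM16 libraries and 52520 to 53580 in PRDM16mut libraries. All 6 mast cell or basophil markers were lower (97.4 to 105 FPKM with PRDM16 and 2117 to 2135 FPKM with PRDM16mut), and all 5 erythroid markers were higher (429 to 851 FPKM with PRDM16 and 68.9 to 129 FPKM with PRDM16mut). Most of the erythroid sum was Hbb-b1, which varied between replicates (770 and 351 FPKM with PRDM16, 109 and 48.8 FPKM with PRDM16mut). Among the mast cell or basophil markers, Cma1 and Mcpt4 passed the filter only through the PRDM16mut libraries. Of the monocyte or macrophage markers 3 were higher and 1 lower of 5 tested (573 to 612 FPKM with PRDM16 and 309 FPKM with PRDM16mut), and of the progenitor markers 2 were higher and 3 lower of 5 tested (563 to 574 FPKM with PRDM16 and 319 to 320.1 FPKM with PRDM16mut). The higher progenitor sum was mostly Ly6a (means of 488 FPKM with PRDM16 and 183 FPKM with PRDM16mut), and Cd48 rose too. Kit (5.68 FPKM with PRDM16 and 47.1 FPKM with PRDM16mut), Cd34 (4.98 and 21.0 FPKM) and Ptprc were lower. All 16 cell division genes were lower, with sums of 871 to 877 FPKM in PRDM16 libraries and 1354 to 1361 FPKM in PRDM16mut libraries. The adipocyte markers Adipoq, Plin1 and Lep were at 0 in all 4 libraries, and Cidec did not pass the filter. The 5 summed to 18.4 to 20.2 FPKM with PRDM16 and 1.83 to 2.84 FPKM with PRDM16mut. Nearly all of this was Fabp4 alone (means of 19.3 FPKM with PRDM16 and 2.31 FPKM with PRDM16mut), so the sum does not describe the list. Lymphoid and stromal markers summed to under 0.2 FPKM in every library. The part of these shifts in the members' differences was not tested, and in bulk RNA fewer cells of a type cannot be told apart from less RNA per cell.

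In the E2A-HLF cotransduction most sterol genes that changed were higher with PRDM16. Fdps, Mvd, Hsd17b7, Cyp51 and Lss rose, Fasn rose, and Me1 fell to a ratio of 0.364 of its PRDM16mut level. Of the 31 members, 9 were higher and 4 lower with PRDM16, together 13 or 41.9%. Among all 11010 genes tested 43.8% were called, 22.7% higher and 21.1% lower, so the total was near the background. The median difference of the members was 0.08 on the log2 scale, against 0.01 for all genes, and the groups did not overlap for 24 of the 31 members, against 73.7% of all genes.

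The mevalonate and sterol groups, with 7 and 11 of the 31 tested members, held most of the higher members in the E2A-HLF cotransduction. Of the mevalonate and isoprenoid genes 2 of 7 were higher (28.6%, against 22.7% of all genes) and 0 lower (against 21.1% of all genes). Fdps had 213 and 204 FPKM in PRDM16 libraries against 136 and 143 FPKM in PRDM16mut libraries (log2 0.58 ± 0.05, adjusted p = 0.00037, limma). Mvd had 30.4 and 29.7 FPKM in PRDM16 libraries against 21.1 and 20.1 FPKM in PRDM16mut libraries (log2 0.53 ± 0.05, adjusted p = 0.000348, limma). For both genes each PRDM16 library exceeded each PRDM16mut library. Acat2, Mvk, Pmvk, Idi1 and Ggps1 had log2 differences of 0.03 to 0.08 and were not called.

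Among the squalene and sterol steps, 5 of 11 genes were higher and 0 lower in the E2A-HLF cotransduction by limma. The higher share was 45.5%, against 22.7% of all genes, and 21.1% of all genes were lower. In neither of these groups was a gene lower at an unadjusted p under 0.05. Cyp51, which removes a methyl group from lanosterol, had 91.2 and 89.9 FPKM in PRDM16 libraries against 59.5 and 62.2 FPKM in PRDM16mut libraries (log2 0.57 ± 0.04, adjusted p = 0.000221, limma). Hsd17b7 had 9.13 and 9.15 FPKM in PRDM16 libraries against 4.90 and 5.84 FPKM in PRDM16mut libraries (log2 0.67 ± 0.08, adjusted p = 0.00123, limma). Lss had 24.6 and 26.2 FPKM in PRDM16 libraries against 19.1 and 18.5 FPKM in PRDM16mut libraries (log2 0.41 ± 0.05, adjusted p = 0.00134, limma). In these 3 genes the PRDM16mut libraries were the lower ones throughout. Tm7sf2 had 12.8 and 10.7 FPKM in PRDM16 libraries against 8.12 and 9.34 FPKM in PRDM16mut libraries (log2 0.39 ± 0.10, adjusted p = 0.023, limma), a call lost without PRDM16 replicate 1 (log2 0.27) or PRDM16mut replicate 1 (log2 0.30). Sc4mol rose by 0.18, a value that dropped to 0.09 and lost its call under quantile normalization. Fdft1, Sqle, Nsdhl, Ebp, Sc5d and Dhcr7 were not called; without PRDM16 replicate 1 or PRDM16mut replicate 1, 3 of the 11 were called.

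Of the 4 regulators and sterol transporters, 1 was higher and 1 lower with PRDM16 in the E2A-HLF cotransduction. That was 25.0% each, against 22.7% and 21.1% of all genes. Srebf2 had 59.9 and 62.2 FPKM in PRDM16 libraries against 72.0 and 68.4 FPKM in PRDM16mut libraries, a fall of 0.20 on the log2 scale (adjusted p = 0.0189, limma). This call was lost without PRDM16 replicate 1 or PRDM16mut replicate 1 (log2 −0.17 and −0.16). Srebf1 had 32.9 and 31.6 FPKM in PRDM16 libraries against 32.1 and 28.6 FPKM in PRDM16mut libraries, with overlapping groups and an interval of −0.07 to 0.25. Insig1 had 60.7 and 57.0 FPKM in PRDM16 libraries against 60.8 and 63.4 FPKM in PRDM16mut libraries, with an interval of −0.20 to 0.05. Stard4 rose by 0.25, and the call was lost without PRDM16 replicate 2 (log2 0.19).

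Me1 had 5.15 and 5.38 FPKM in PRDM16 libraries against 14.0 and 14.9 FPKM in PRDM16mut libraries of the E2A-HLF cotransduction (log2 −1.30 ± 0.06, adjusted p = 2.24e-05, limma), the largest change of any member there. Elovl6 had 27.3 and 29.8 FPKM in PRDM16 libraries against 36.1 and 37.1 FPKM in PRDM16mut libraries (log2 −0.35 ± 0.06, adjusted p = 0.00386, limma), and Scd1 fell by 0.15. Fasn rose by 0.34 (53.4 ± 0.9 FPKM with PRDM16 and 42.3 ± 5.9 FPKM with PRDM16mut, SD, n = 2 each). The Fasn call was lost without either PRDM16 library (log2 0.35 and 0.32), and the Scd1 call without any 1 of the 4 libraries (log2 −0.14 to −0.17). Scd2, Acaca, Acly, Acss2 and Lpin1 were not called, and Scd2 differed by 0.00 with an interval of −0.12 to 0.12.

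Marker shifts in the E2A-HLF cotransduction ran partly the other way. Beside the counts below, 22.7% of all genes were higher and 21.1% lower with PRDM16. Neutrophil granule markers were higher for 6 of 7 tested (1846 to 1931 FPKM with PRDM16 and 673 to 687 FPKM with PRDM16mut), monocyte or macrophage markers were higher for 3 and lower for 1 of 4 tested (93.8 to 96.7 FPKM with PRDM16 and 53.4 to 54.5 FPKM with PRDM16mut), and progenitor markers were higher for 1 and lower for 3 of 6 (1478 to 1554 FPKM with PRDM16 and 2724 to 2906 FPKM with PRDM16mut). Mast cell or basophil markers were higher for 3 and lower for 1 of 4 tested (113 to 118 FPKM with PRDM16 and 86.8 to 91.4 FPKM with PRDM16mut). Erythroid markers were higher for 2 and lower for 1 of 5 (165 to 337 FPKM with PRDM16 and 408 to 626 FPKM with PRDM16mut). Their log2 differences ran from −1.67 to 0.465 with a median of 0.08, so the lower sum does not describe the list. Cell division genes summed to 1339 to 1376 FPKM with PRDM16 and 1353 to 1388 FPKM with PRDM16mut, with 1 of 16 called in each direction. The adipocyte, lymphoid and stromal lists had no gene above the filter. Their part in the members' differences was not tested.

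In the MLL-AF9 stable cells few members changed, and those that did were lower with PRDM16. They were Acaca, Fasn and Elovl6, which act in that order in making and lengthening fatty acids, and Lss. These were 4 of 31 members (12.9%), beside 6.36% of all 10580 genes tested, of which 4.20% were higher and 2.16% lower. No member was called higher by limma, and at an unadjusted p under 0.05 there were 2 higher and 11 lower. The median difference of the members was −0.05 on the log2 scale, against 0.01 for all genes, and the groups did not overlap for 22 of the 31 members, against 60.6% of all genes.

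Fasn had 41.3 and 40.9 FPKM in PRDM16 libraries against 55.8 and 59.1 FPKM in PRDM16mut libraries of the stable cells (log2 −0.47 ± 0.04, adjusted p = 0.00592, limma). Acaca had 14.0 and 13.8 FPKM in PRDM16 libraries against 15.7 and 16.7 FPKM in PRDM16mut libraries (log2 −0.21 ± 0.04, adjusted p = 0.0466, limma). Elovl6 had 9.31 and 9.36 FPKM in PRDM16 libraries against 10.9 and 11.0 FPKM in PRDM16mut libraries (log2 −0.21 ± 0.03, adjusted p = 0.0367, limma). In all 3 the PRDM16 libraries lay below the PRDM16mut libraries, though Acaca and Elovl6 by small amounts. Lss had 23.9 and 23.4 FPKM in PRDM16 libraries against 27.7 and 27.4 FPKM in PRDM16mut libraries (log2 −0.21 ± 0.03, adjusted p = 0.0283, limma). These calls depended on the number of libraries: without PRDM16 replicate 2 none was left, and without PRDM16 replicate 1, PRDM16mut replicate 1 or PRDM16mut replicate 2 only Fasn was called. With no filter on low values none was called.

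The other 27 members of the stable cells had log2 differences between −0.18 and 0.24. Srebf1 had 34.2 and 33.2 FPKM in PRDM16 libraries against 35.7 and 36.4 FPKM in PRDM16mut libraries, with an interval of −0.17 to −0.02 before adjustment and no call after it. Srebf2 had 53.9 and 53.1 FPKM in PRDM16 libraries against 53.1 and 57.9 FPKM in PRDM16mut libraries, with an interval of −0.17 to 0.06. Insig1 had 50.1 and 49.99 FPKM in PRDM16 libraries against 51.7 and 51.6 FPKM in PRDM16mut libraries, with an interval of −0.11 to 0.02. Fdps had 278 and 269 FPKM in PRDM16 libraries against 302 and 290.2 FPKM in PRDM16mut libraries (log2 −0.12, adjusted p = 0.116, limma). The sums of the neutrophil granule and cell division lists moved little. Neutrophil granule markers summed to 15350 to 15480 FPKM with PRDM16 and 14640 to 15230 FPKM with PRDM16mut, with 2 of 9 lower. Cell division genes summed to 1633 to 1658 FPKM with PRDM16 and 1600 to 1628 FPKM with PRDM16mut, with 0 of 16 called. Of the progenitor markers 1 of 5 tested was higher, beside 4.20% of all genes higher and 2.16% lower. None of 6 monocyte or macrophage markers was called, though 4 were higher at an unadjusted p under 0.05 by limma. Only 1 mast cell or basophil marker and 1 erythroid marker passed the filter, and neither was called. No adipocyte, lymphoid or stromal marker passed the filter.

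**Figure D3:**
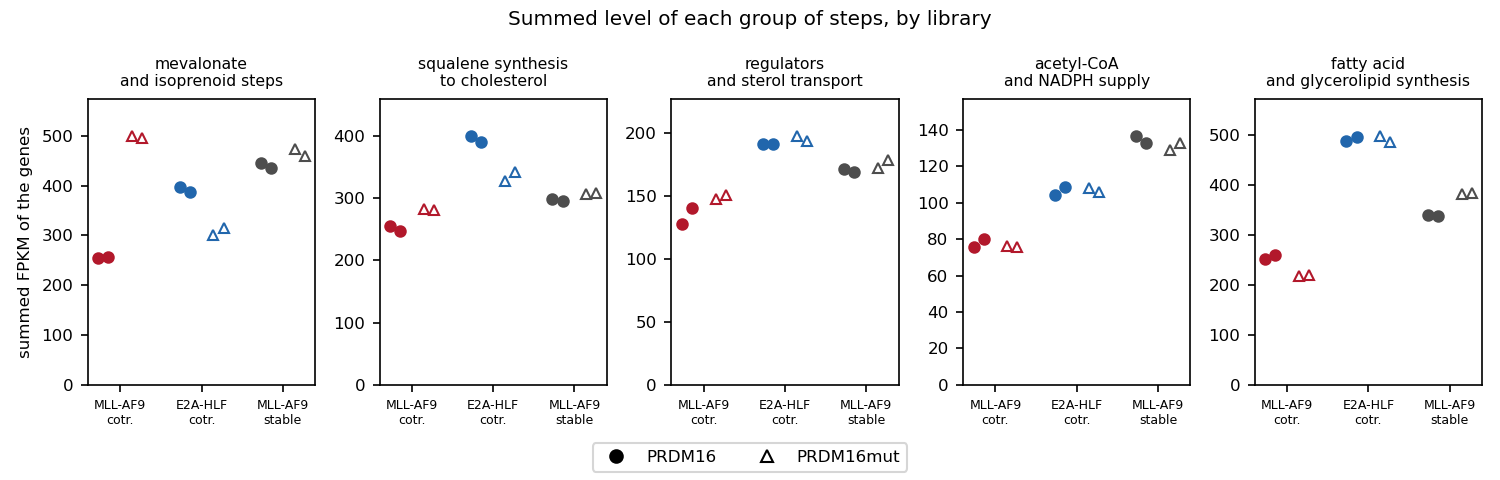
Summed FPKM of the genes of each role group in every library, PRDM16 (filled circles) left of PRDM16mut (open triangles). The mevalonate and isoprenoid genes summed to 254 to 257 FPKM with PRDM16 and 497 to 499.6 FPKM with PRDM16mut in the MLL-AF9 cotransduction, and to 387 to 397 FPKM with PRDM16 and 300.3 to 316 FPKM with PRDM16mut in the E2A-HLF cotransduction. Most of the MLL-AF9 difference was Fdps alone (means of 122 FPKM with PRDM16 and 350 FPKM with PRDM16mut). Fdps was also most of the E2A-HLF difference (means of 209 FPKM with PRDM16 and 139 FPKM with PRDM16mut).

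Across experiments the members did not keep a direction. The cotransductions share no library, and 11 members were called in both: Mvd and Sc4mol were higher in both, and the other 9 (Fdps, Lss, Tm7sf2, Hsd17b7, Fasn, Scd1, Stard4, Elovl6 and Me1) had opposite signs. Opposite signs among all genes called in both were not counted, so the reversal is not shown to be particular to the members. Between the MLL-AF9 cotransduction and the stable cells 4 members were called in both, Lss, Fasn and Acaca lower in each and Elovl6 higher in the cotransduction and lower in the stable cells. Stable cells and the E2A-HLF cotransduction had 3 members called in both, Elovl6 lower in each and Lss and Fasn of opposite sign. Pmvk, Fdft1, Dhcr7, Insig1, Srebf1 and Ggps1 were tested and called in none of the 3.

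**Figure D4:**
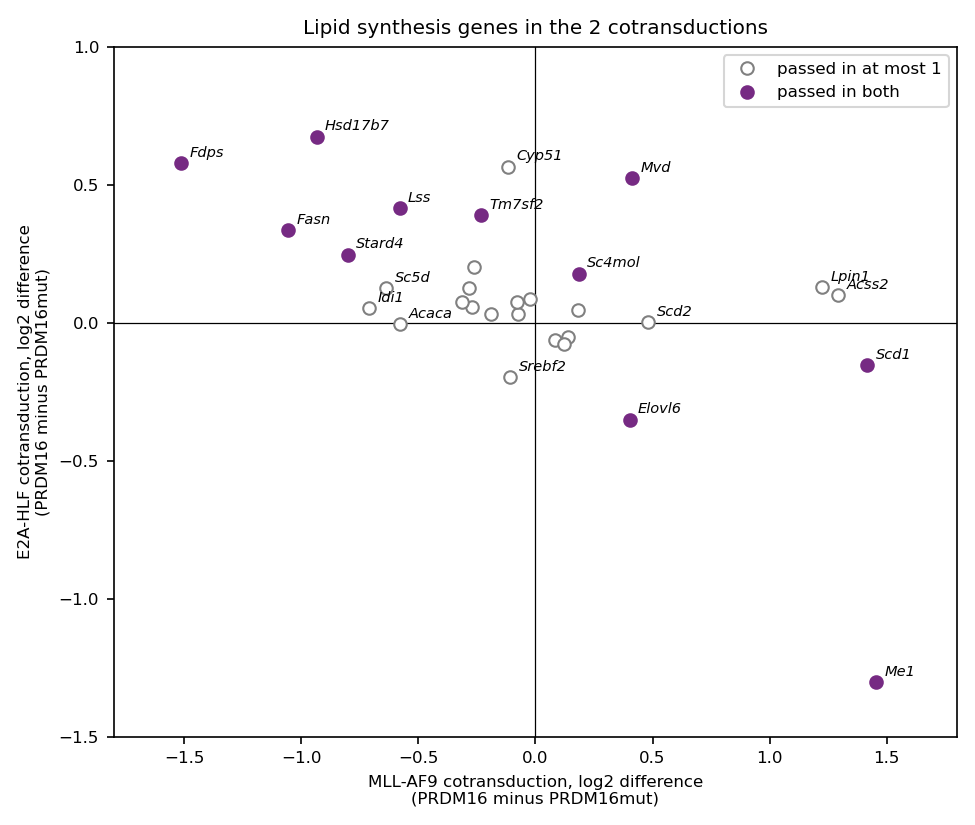
Log2 difference (PRDM16 minus PRDM16mut) of each tested member in the MLL-AF9 cotransduction (horizontal) and the E2A-HLF cotransduction (vertical). Filled points were called in both, 11 members, of which 9 lie in the quadrants of opposite sign. The share of opposite signs among all genes was not counted.

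The difference between experiments was itself tested in 1 limma fit of all 12 libraries over 9475 genes, in which the 3 contrasts share comparisons. The effect of PRDM16 differed between the MLL-AF9 and E2A-HLF cotransductions for 22 of 31 members, against 71.4% of all genes. Me1 differed most, its log2 effect being 2.76 ± 0.09 higher in the MLL-AF9 cotransduction (adjusted p = 1.41e-09, limma). It passed the filter there only through the PRDM16 libraries, with 0.92 and 0.95 FPKM in the PRDM16mut libraries. Fdps followed at −2.09 ± 0.06 (adjusted p = 5.63e-10, limma). Hsd17b7 (−1.61), Scd1 (1.57) and Fasn (−1.39) were the next. Stable cells against the MLL-AF9 cotransduction gave 20 of 31 members, against 64.0% of all genes, and stable cells set against E2A-HLF gave 10 of 31, against 37.0% of all genes. Each of these shares lay near that of all genes or below it.

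Neighbouring pathways were counted from 6 lists of their own. Together they held 43 calls among 65 genes tested in the MLL-AF9 cotransduction (66.2%, against 69.5% of all genes), 31 of 64 in the E2A-HLF cotransduction (48.4%, against 43.8%) and 4 of 63 in the stable cells (6.35%, against 6.36%), so their totals were near the background. For the counts by direction below, 35.6% of all genes were higher and 34.0% lower in the MLL-AF9 cotransduction. In the MLL-AF9 cotransduction, 5 of 10 genes of sterol efflux, LXR and esterification were higher and 2 lower: the lysosomal lipase Lipa (141 FPKM with PRDM16 and 35.5 FPKM with PRDM16mut, log2 1.96) and the sterol exporters Abca1 (log2 1.82) and Abcg1 (log2 1.65) had the smallest p. Abca1 passed the filter only through the PRDM16 libraries, and the LXR gene Nr1h3, 1 of the 2 lower genes, only through the PRDM16mut libraries. Of 15 fatty acid oxidation genes 10 were higher and 1 lower, among them Acads (log2 0.76) and Acadl (log2 0.61). Among elongation, desaturation and activation genes 5 of 12 tested were higher, with the desaturases Fads2 (log2 1.84) and Fads1 (log2 0.90), and 3 lower, with the elongase Elovl7 (log2 −1.06), which passed the filter only through the PRDM16mut libraries. Glycerolipid and phospholipid genes were higher for 6 and lower for 4 of 12 tested, and Dgat2, which makes triglyceride, stood at 1.39 FPKM with PRDM16 and 20.8 FPKM with PRDM16mut (log2 −3.19). Agpat2, an acyltransferase of the same route, fell by 1.89 and Pcyt1a, of phosphatidylcholine synthesis, rose by 0.92. Isoprenoid-using genes were lower for 5 of 9 and higher for 0, among them the prenyltransferase subunits Rabggtb (log2 −0.53) and Pggt1b (log2 −0.35) and the ubiquinone gene Pdss1 (log2 −0.37). Of 7 SREBP processing genes Mbtps1, a protease that cleaves SREBP, rose by 0.21 and Ufd1l, of protein degradation, fell by 0.59.

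In the E2A-HLF cotransduction Dgat2 was at 5.40 FPKM with PRDM16 and 0.93 FPKM with PRDM16mut (log2 1.73), and passed the filter only through the PRDM16 libraries. Dgat1 rose (log2 0.81) and Pcyt1a fell by 0.28, among 3 higher and 4 lower of 12 glycerolipid and phospholipid genes. Sterol efflux, LXR and esterification genes were higher for 2 and lower for 4 of 9 tested, with Abca1 (log2 −0.80) and Lipa (log2 −0.35) lower and the cholesterol-esterifying Soat1 (log2 0.52) higher. Abca1 here passed the filter only through the PRDM16mut libraries. SREBP processing genes were higher for 3 and lower for 0 of 7, among them Ufd1l (log2 0.20) and the SREBP protease Mbtps2 (log2 0.19). That was 42.9% called, near the 43.8% of all genes in this cotransduction, of which 22.7% were higher and 21.1% lower. Elongation, desaturation and activation genes were higher for 4, including Acsl4 (log2 0.54) and Elovl1 (log2 0.29), and lower for 3, including Fads1 (log2 −0.41), of 12 tested. Oxidation genes were higher for 1 and lower for 3 of 15, Acadl (log2 −0.63), Acads (log2 −0.29) and Hadh (log2 −0.27) being those that fell. Isoprenoid-using genes were higher for 3, including Pdss1 (log2 0.36) and Rabggta (log2 0.21), and lower for 1 of 9, Fntb (log2 −0.40). In the stable cells the 4 calls were Lipa (log2 0.23) and Acadl (log2 0.21) higher and Elovl1 (log2 −0.17) and Pcyt2 (log2 −0.14) lower. Several of these counts moved with single libraries: without PRDM16mut replicate 1 or 2, 5 and 4 oxidation genes were called in the MLL-AF9 cotransduction, and leaving out any 1 library ended each of these 4 calls in the stable cells.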

How the data were processed

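RNA was oligo(dT)-primed and made into TruSeq v2 libraries, per the labels' protocols. Bowtie2 2.0.0.7, TopHat2 2.0.3, Cuffdiff and the mm9 build are named in the submitters' processing notes. The authors deposited FPKM per gene symbol in 3 tables of 4 libraries, normalized separately, so levels were compared within a table. FPKM are not counts, and depth is unknown beyond the ratios given, taken from values under 0.15 FPKM of which 61.7 to 69.6% formed whole-number ratios within 0.5%. From them, log2(FPKM + 1) was fitted with limma 3.58.1 in R 4.3.3, with a variance trend and genes at 1 FPKM or more in 2 libraries, and p-values were adjusted over all genes of a table. The kit does not mark strand, so overlapping antisense genes cannot be told apart. Simulated data with 200 changed genes recovered 51, 65 and 76% of log2 changes of 0.5 in the MLL-AF9 cotransduction, E2A-HLF cotransduction and stable cells, and 88, 90 and 94% of changes of 1. In the real data 69.5, 43.8 and 6.36% of all genes were called, and the adjusted threshold depends on that share. The recovered percentages therefore hold for the simulated setting and do not give the sensitivity of the real tests.

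The members, lists and tests were chosen with earlier results of these data known. Values per library are given for the 8 called members with the largest difference in each comparison and for Srebf1, Srebf2 and Insig1; the 5 largest differences are named per contrast between experiments, up to 3 genes of smallest p per other list (some are not reported here), and promoters of the 4 called members with the largest mean change that have an entry and a motif. Alternatives were a pseudocount of 0.1, no filter, a filter of 5 FPKM, quantile normalization, median centring, a spread shared over 12 libraries, a replicate block and leaving out each library. Symbols that a spreadsheet had turned into dates (25 to 27 per table) hold no member.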

Additional observations from a re-analysis of the deposited data

Results flagged for a closer look

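The effect of PRDM16 differed between experiments, by the contrast of contrasts in the 12-library limma fit, for 22 members between the MLL-AF9 and E2A-HLF cotransductions, for 20 between the stable cells and the MLL-AF9 cotransduction and for 10 between the stable cells and the E2A-HLF cotransduction. The contrasts share comparisons and are not independent, and 71.4%, 64.0% and 37.0% of all genes passed the same tests.

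For the MLL-AF9 minus the E2A-HLF cotransduction, the largest differences in log2 effect were Me1 at 2.76, Fdps at −2.09, Hsd17b7 at −1.61, Scd1 at 1.57 and Fasn at −1.39. For the stable cells minus the MLL-AF9 cotransduction they were Scd1 at −1.44, Fdps at 1.40, Me1 at −1.29, Lpin1 at −1.09 and Acss2 at −1.05. In both of these contrasts Me1 passed the filter in the MLL-AF9 cotransduction only through the PRDM16 libraries. For the stable cells minus the E2A-HLF cotransduction they were Me1 at 1.46, Hsd17b7 at −0.82, Fasn at −0.81, Cyp51 at −0.71 and Fdps at −0.69. Neutrophil granule, mast cell and erythroid markers and, in the MLL-AF9 cotransduction, cell division genes moved between the same groups, and their part in these differences was not tested.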

How the results depend on the processing

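In the MLL-AF9 cotransduction Fdps, Me1, Scd1, Acss2, Lpin1, Fasn, Hsd17b7 and Stard4, and in the E2A-HLF cotransduction Me1, Hsd17b7, Fdps, Cyp51, Mvd, Lss and Elovl6, kept their direction and call under each alternative that tested them. Leaving out 1 library, which leaves an arm with 1 sample, gave 14 to 27 called members in the MLL-AF9 cotransduction (6 to 11 higher, 8 to 16 lower), 8 to 13 in the E2A-HLF cotransduction (6 to 10 higher, 2 to 4 lower) and 0 to 1 in the stable cells (0 higher, 0 to 1 lower). The lowest counts came without PRDM16mut replicate 2 (14; 15 without PRDM16mut replicate 1) and without PRDM16 replicate 1 (8 in the E2A-HLF cotransduction). The contrasts between experiments gave 22 to 25, 18 to 22 and 8 to 11 members. Srebf1 in the MLL-AF9 cotransduction was 0.17 without PRDM16 replicate 1 and −0.22 without PRDM16 replicate 2. In the stable cells no filter gave 0 called and 0 lower, and a spread shared over 12 libraries gave 1 higher and 2 lower; the cause was not tested. Mvk in the MLL-AF9 cotransduction was −0.16 and not called without PRDM16 replicate 1.

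Same-numbered libraries deviated together with correlations of 0.067, 0.289 and 0.319, but 2 pairs per table and the labels do not establish a pairing. With a replicate block 21, 12 and 5 members were called in the MLL-AF9 cotransduction (7 higher, 14 lower), the E2A-HLF cotransduction (9 higher, 3 lower) and the stable cells (0 higher, 5 lower), and 22, 20 and 8 in the contrasts between experiments. The median level of all genes differed between groups by at most 0.04 on the log2 scale. FPKM without depth give no counting error, so a small difference that missed the threshold is not shown to be absent.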
